A study of Mus musculus with 16 samples.

Results

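The genes described here encode the Nodal signalling pathway of early mouse development, from ligand to nuclear factor to feedback inhibitor: Nodal, Gdf3, Tdgf1, Acvr2a, Acvr2b, Foxh1, Lefty1 and Lefty2. They were taken by name from a table of gene expression, in which all 8 were found among 27807 genes, and all 8 had the mean of at least 10 normalised counts needed for testing, as had 16124 genes in all. Their roles in the pathway chose them and no measured value did, although earlier results from these data were known when they were listed.

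Nodal is a secreted ligand of the TGF-beta family. It binds type II activin receptors (Acvr2a or Acvr2b) together with a type I receptor and the membrane-anchored co-receptor Tdgf1 (Cripto), and the active receptors phosphorylate Smad2 and Smad3. These join Smad4 and the DNA-binding factor Foxh1 to switch on target genes, among which are Nodal itself and its secreted antagonists Lefty1 and Lefty2, so that the pathway holds a positive and a negative feedback loop. In the mouse embryo it patterns the epiblast, induces mesendoderm and sets the left-right axis. Embryonic stem cells express most of its components, and blocking it favours neural fate.

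Poly-A RNA of mouse embryonic stem (ES) cells, and of the floating aggregates they form on differentiation, embryoid bodies, was sequenced in 16 libraries that make 8 groups of 2. Each of 4 stages had wild-type cells, labelled Taf4+/+ and called WT here, and cells homozygous for a null allele, labelled Taf4-/- and called KO. The Taf4a protein is part of TFIID, the complex that starts assembly of RNA polymerase II at promoters, and its paralogue Taf4b was not targeted. ES cells were grown with serum and LIF on inactivated mouse embryonic fibroblast feeders, and aggregates were collected before retinoic acid was given (EB4), after its first day (EB5) and at the end of its use (EB8), the stage at which the protocol yields neural precursors. The series lists 2 independent lines for either genotype, established from blastocysts, and the labels give a replicate number for each library but no line name, so that p-values measure the spread between these libraries.

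The null allele lacks exons 11 and 12 of Taf4a, and a count summed over the whole gene (chromosome 2, 179646851 to 179711351 on NCBIM37) cannot show that loss. Normalised read counts of Taf4a were 1591 to 1960 in the 8 WT libraries and 1973 to 2400 in the 8 KO libraries, so the genotype labels were not checked by it. Depth ran from 32631020 to 40711826 reads in genes for ES libraries and from 22442118 to 27685306 for embryoid bodies, a gap that cannot be told apart from stage in any comparison of ES with a later stage. WT ES replicate 2 stood apart from WT ES replicate 1 in X-linked expression and in feeder markers (summed normalised counts 2640 against 1021), and 5 libraries in all (this one and replicate 2 of each KO group) had a median X-chromosome level between 0.25 and 0.54 log2 units above that of the 4 libraries of their stage, against -0.37 to -0.11 in the other 11. Chromosome 8 lay 0.35 to 0.37 above its stage in replicate 1 of WT EB4, EB5 and EB8, against -0.16 to -0.14 in replicate 2 of these groups and -0.02 and -0.05 in the WT ES replicates, and chromosome 11 lay 0.16 to 0.26 above in replicate 1 of all 4 KO groups. These levels went with the replicate number across the KO stages and across the WT embryoid bodies, whereas WT ES replicate 1 did not share the chromosome 8 level of the later WT replicate 1 libraries. The labels do not say whether WT ES and the WT embryoid bodies came from the same lines. In any comparison that sets WT ES against a later WT stage, line and stage therefore cannot be told apart. On the 6 chromosomes that carry the Nodal pathway genes described here the level stayed between -0.10 and 0.10 in every library. The ES marker Pou5f1 gave at least 27999 normalised counts in each ES library and at most 19545 in any embryoid body library. Nanog gave at least 6242 in each ES library but did not set ES apart, with 7989 and 8408 in KO EB8. The neuronal markers Tubb3, Dcx and Map2 summed to 13600 and 17903 in WT EB8, and to 964 and 624 in KO EB8.

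Positions are those of build NCBIM37 (mm9). Nodal lies on chromosome 10 (60880720 to 60888086, plus strand, 3 exons), Gdf3 on chromosome 6 (122555421 to 122560105, minus strand, 2 exons) and Tdgf1 on chromosome 9 (110842114 to 110848662, minus strand, 6 exons). Acvr2a lies on chromosome 2 (48669629 to 48758789, plus strand, 11 exons), Acvr2b on chromosome 9 (119311562 to 119342619, plus strand, 10 exons) and Foxh1 on chromosome 15 (76498714 to 76500378, minus strand, 3 exons). Lefty2 (182823239 to 182829234) and Lefty1 (182865153 to 182868531), with 4 exons each, are neighbours on the plus strand of chromosome 1. All 8 are annotated as protein coding, and Acvr2a alone among them overlaps another gene, sharing 446 exonic bases with Orc4 on the opposite strand, where reads of a kit that does not mark strand cannot be told apart.

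The reads were 54 bases long, so each exonic window of that length was looked up in the whole genome. Of 1546 such windows in Lefty1, 281 (18.2%) were identical to windows of Lefty2, where they made up 11.7%, and reads from them cannot be assigned to either gene. In Tdgf1 22.2% of windows occurred at a second place in the genome, in Gdf3 2.4% occurred elsewhere, and in Nodal, Acvr2a, Acvr2b and Foxh1 none did.

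Nodal carries within its first intron an enhancer that is known to respond to Foxh1, and this intron (60881244 to 60885729, 4486 bases) was searched for the Foxh1 motif AATCCACA and its reverse complement TGTGGATT. It held 2 matches, which begin 1327 and 2121 bases after the start of the gene and are given here with their flanks. Nodal and Foxh1 were both higher in KO at EB8, while at EB4 and EB5 Nodal lay higher and Foxh1 lower in KO without passing. Whether Foxh1 acts at these matches was not tested. The 8 motif bases are in capitals. Of 28252 stretches of the same length along chromosome 10, 18.7% held at least 1 match and 2.07% held 2 or more.
Nodal intron match 1 (chr10:60882021-60882080, plus strand): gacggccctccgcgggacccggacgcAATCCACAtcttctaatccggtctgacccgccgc
Nodal intron match 2 (chr10:60882815-60882874, plus strand): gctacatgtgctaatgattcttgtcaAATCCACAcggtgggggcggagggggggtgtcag

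RefSeq promoter windows on build GRCm38.p6 were given for Nodal, Tdgf1, Acvr2a and Acvr2b, and not for Gdf3, Foxh1, Lefty1 and Lefty2. In 300 bases around the start, 250 before it and 50 from it, none of the 4 held the Foxh1 motif, which 0.855% of 32851 windows held, or the palindromic Smad motif GTCTAGAC, which 0.213% held. The 250 bases before the start are printed 5′ to 3′ on the strand of the gene with every CpG in capitals, because the pair that was higher in KO at EB8 (Nodal, Tdgf1) and the pair that was lower (Acvr2a, Acvr2b) differ in base content. With windows for only 4 genes, a link between base content and direction was not tested. Nodal had 53.2% GC and 3 CpG and Tdgf1 42.0% and 7, near or below the medians of 52.4% and 6 over all windows. Acvr2a had 82.0% GC and 49 CpG, with more GC than 99.3% of the windows, and Acvr2b had 72.8% and 24, with more than 94.0%.
Nodal (chr10:61417722-61417971, plus strand): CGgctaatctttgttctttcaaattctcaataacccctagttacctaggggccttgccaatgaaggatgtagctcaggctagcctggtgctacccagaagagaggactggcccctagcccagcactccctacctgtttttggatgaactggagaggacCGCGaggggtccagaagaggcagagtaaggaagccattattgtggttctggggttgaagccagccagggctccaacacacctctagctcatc
Tdgf1 (chr9:110946159-110946408, minus strand): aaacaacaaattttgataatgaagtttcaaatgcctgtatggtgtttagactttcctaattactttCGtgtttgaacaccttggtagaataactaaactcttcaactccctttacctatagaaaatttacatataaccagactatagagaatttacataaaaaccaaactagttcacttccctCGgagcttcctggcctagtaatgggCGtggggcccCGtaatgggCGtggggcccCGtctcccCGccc
Acvr2a (chr2:48813859-48814108, plus strand): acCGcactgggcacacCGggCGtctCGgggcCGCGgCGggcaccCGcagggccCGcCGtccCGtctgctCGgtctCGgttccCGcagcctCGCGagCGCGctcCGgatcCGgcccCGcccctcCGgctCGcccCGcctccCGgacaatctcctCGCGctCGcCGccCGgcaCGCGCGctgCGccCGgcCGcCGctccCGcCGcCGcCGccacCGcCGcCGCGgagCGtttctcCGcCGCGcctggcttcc
Acvr2b (chr9:119401928-119402177, plus strand): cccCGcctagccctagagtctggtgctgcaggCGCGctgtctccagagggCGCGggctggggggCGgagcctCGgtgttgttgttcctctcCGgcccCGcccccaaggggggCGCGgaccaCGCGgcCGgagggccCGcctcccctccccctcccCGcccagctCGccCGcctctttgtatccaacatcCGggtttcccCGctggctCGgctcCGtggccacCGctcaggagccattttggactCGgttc

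**Figure D1:**
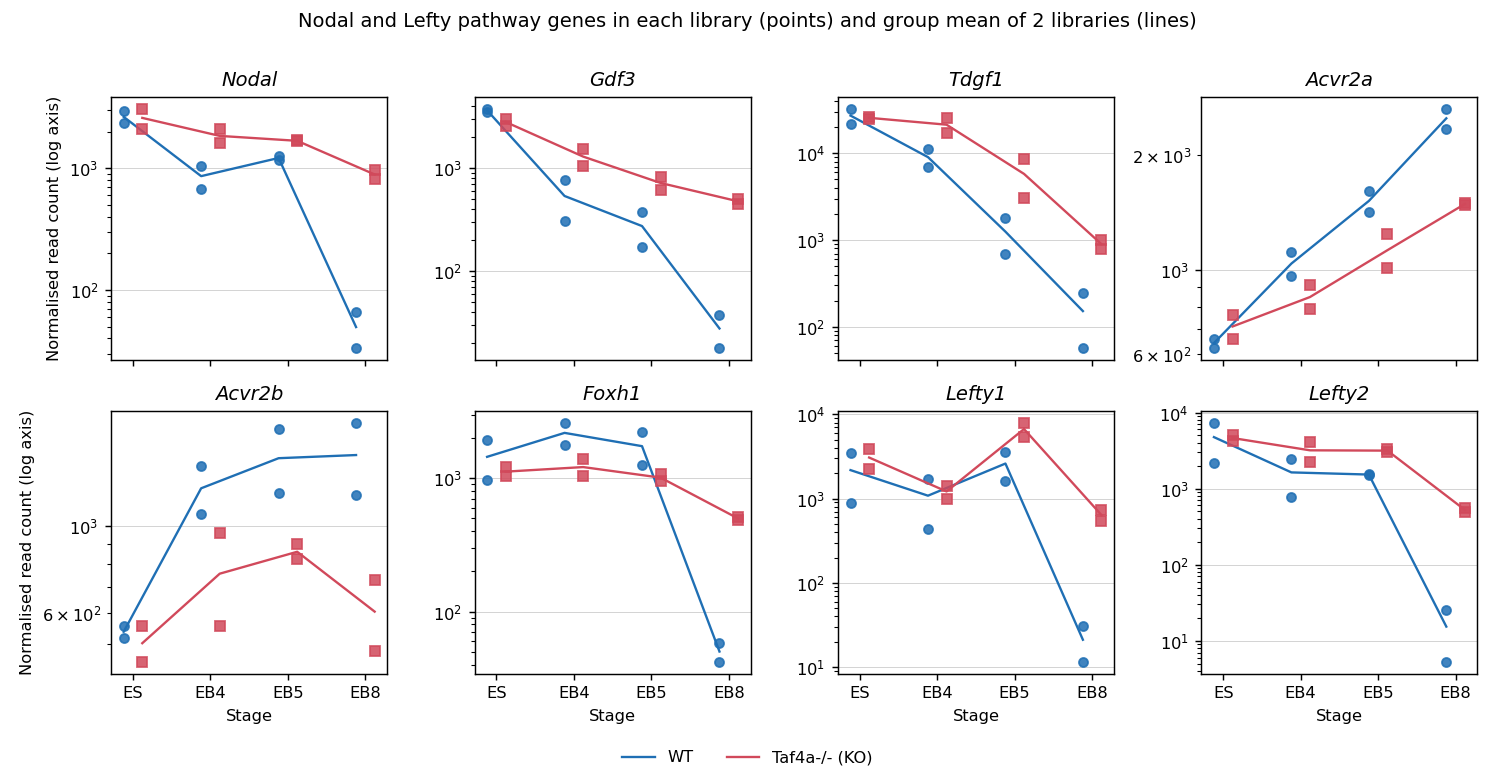
Normalised read count (log axis) of each Nodal pathway gene by stage, with WT libraries as blue circles, KO libraries as red squares and lines through the group means of 2 libraries. In 6 panels the WT values at EB8 lie below every other value, while Acvr2a climbs across the stages in both genotypes and Acvr2b lies lower in KO than in WT from EB4 on.

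Levels were compared between genes as normalised counts per kilobase of exon. In WT ES cells Tdgf1 was the most abundant of the 8 at a mean of 14062 per kilobase, and it was the only gene that lay apart from all others at the top. Lefty2, Gdf3, Nodal, Lefty1 and Foxh1 followed between 1111 and 1818, and the WT ES replicates of Lefty2 (822 and 2815), Lefty1 (505 and 1974) and Foxh1 (1478 and 743) spread across that range, so that of these neighbours Gdf3 and Nodal alone did not overlap. The receptors came last, Acvr2b at 306 and Acvr2a at 113. KO ES cells had Tdgf1 on top at 13255 and the receptors at the bottom (286 and 125) as well. By EB8 the WT order had turned over: Acvr2b led at 863 per kilobase, Acvr2a came next at 438, and the others ran from 79.1 for Tdgf1 down to 5.87 for Lefty2. The order of the receptors rests on exon lengths of 1753 bases for Acvr2b and 5686 for Acvr2a in GENCODE M1. The release used for counting is not given. By counts Acvr2a was the higher receptor in WT EB8, at 2643 and 2341 against 1197 and 1830. In KO EB8 all 8 lay within a narrow band, from 466 for Tdgf1 to 201 for Lefty2, and neighbouring genes from Tdgf1 to Acvr2b in that order overlapped between libraries.

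The first comparison asked whether loss of Taf4a changed the pathway in undifferentiated ES cells. Nodal, the ligand, had normalised counts of 2358 and 2944 in the WT libraries against 2099 and 3101 in the KO libraries. Lefty2, its antagonist, had 2145 and 7349 against 4211 and 5032. For both genes the WT range overlapped the KO range. None of the 8 genes passed the threshold (limma, adjusted p under 0.05), where none of the 16124 genes tested did (0%), and none of the 8 reached an unadjusted p under 0.05, as 1846 of all genes did. The log2 changes, KO minus WT, ran from -0.38 for Gdf3 (SE 0.46, 95% interval -1.38 to 0.62) to 0.75 for Lefty1 (SE 0.72, -0.81 to 2.31), with a median of -0.05. Between them lay Foxh1 at -0.29, Acvr2b at -0.10, Tdgf1 at -0.06, Nodal at -0.05, Acvr2a at 0.14 and Lefty2 at 0.21. These intervals leave room for changes of more than 2 log2 units in Lefty1. Tests on the read counts gave the same number: 0 of 8 by edgeR (0% of all genes) and 0 of 8 by DESeq2, which called 3.27% of the genes it tested.

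At the first step in WT cells, from ES to EB4, both TGF-beta ligands ended lower and both type II receptors higher. Line, depth and stage cannot be told apart in this comparison. Nodal went from 2358 and 2944 normalised counts in ES to 1047 and 680 in EB4, a log2 change of -1.64 (SE 0.31, limma adjusted p = 0.00546). Gdf3, a ligand related to Nodal that forms heterodimers with it, went from 3795 and 3499 to 765 and 306, a change of -2.91 (SE 0.46, adjusted p = 0.00251). No EB4 library reached the ES range of its gene. These 2 of 8 stood beside 7.57% of all genes that fell. Acvr2a rose from 659 and 624 to 960 and 1114 (log2 change 0.69, adjusted p = 0.0181) and Acvr2b from 519 and 555 to 1072 and 1419 (1.20, adjusted p = 0.0230), beside 8.98% of all genes that rose. Both receptor calls were lost without WT ES replicate 2 (adjusted p = 0.0619 and 0.0616) and without WT EB4 replicate 2 (0.110 and 0.132), and that of Acvr2b also without WT ES replicate 1 (0.0768). In a fit of the WT ES and WT EB4 libraries alone Gdf3 still passed, while Nodal (0.0553), Acvr2a (0.197) and Acvr2b (0.0838) did not. Tdgf1, Lefty1, Lefty2 and Foxh1 had changes of -1.60, -1.01, -1.51 and 0.65 that did not pass.

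In KO cells the same step had no call among the 8 genes by limma, beside 3.5% of all genes, and none by edgeR (3.12%) or DESeq2 (12.1%). Of the 8, 1 had an unadjusted p under 0.05, as had 3443 of all 16124 genes. Nodal went from 2099 and 3101 normalised counts to 1605 and 2093 (log2 change -0.48, SE 0.31, limma adjusted p = 0.408) and Gdf3 from 3031 and 2589 to 1058 and 1530 (-1.14, SE 0.46, adjusted p = 0.177). The changes of the other genes ran from -1.30 for Lefty1 through -0.60 for Lefty2, -0.29 for Tdgf1, 0.10 for Foxh1 and 0.26 for Acvr2a to 0.54 for Acvr2b. Tdgf1, the co-receptor, had 24722 and 26309 in KO ES, then 16976 and 25557 at EB4, whereas WT went from 32592 and 21545 to 11163 and 6849. At EB4 both KO libraries thus exceeded both WT libraries for Nodal, Gdf3 and Tdgf1, and lay below both for Acvr2a, Acvr2b and Foxh1. How many of all genes lay apart in this way was not counted. None of the 8 genes passed by limma, beside 6.12% of all genes. An unadjusted p under 0.05 was reached by 4 of the 8 and by 3668 of all 16124 genes. The gene closest to the threshold was Nodal at a log2 change of 1.12 (SE 0.31, limma adjusted p = 0.0539). The others were at 1.39 for Gdf3, 1.25 for Tdgf1, 1.13 for Lefty2, 0.46 for Lefty1, -0.29 for Acvr2a, -0.76 for Acvr2b and -0.84 for Foxh1. Nodal did pass in 4 of 14 alternatives (adjusted p from 0.00522 to 0.347 over all of them), a pseudocount of 5 (0.0476) and DESeq2 included. On the read counts edgeR called 0 of the 8 (5.03% of all genes) and DESeq2 2 of them, Nodal and Gdf3 (13.4%).

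Over the first day of retinoic acid Tdgf1 fell in WT cells, and no other gene of the 8 passed in either genotype. Tdgf1 went from 11163 and 6849 normalised counts to 1799 and 700, a log2 change of -2.96 (SE 0.64, limma adjusted p = 0.0226), the 1 call among the 8 genes beside 1.14% of all genes that fell. This call was lost without WT EB4 replicate 1 (adjusted p = 0.182) or WT EB5 replicate 2 (0.241), and in a fit of these 2 groups alone (0.0574). In KO the values were 16976 and 25557 before and 3010 and 8537 after (log2 change -2.04, limma adjusted p = 0.126). None of the 8 genes passed there by limma (2.51% of all genes) or edgeR (2.26%), though DESeq2 called 2 (6.43%). An unadjusted p under 0.05 was reached in limma by 3 of the 8 and by 2630 of all 16124 genes. Nodal had 1264 and 1172 in WT EB5 (log2 change 0.53, 95% interval -0.15 to 1.20) and 1698 and 1672 in KO EB5 (-0.12, -0.80 to 0.55). Lefty1 went from 1726 and 441 to 3584 and 1630 in WT (log2 change 1.47, adjusted p = 0.380) and from 1002 and 1429 to 7962 and 5426 in KO (2.46, SE 0.72, adjusted p = 0.103), so that KO EB5 held the highest Lefty1 values of all 16 libraries. Lefty2 had 2481 and 783 and then 1512 and 1546 in WT, and 2241 and 4128 and then 3281 and 3028 in KO, with log2 changes of 0.13 and 0.05. Acvr2a, at 0.55 in WT and 0.40 in KO, lay higher in both EB5 libraries than in both EB4 libraries of either genotype. Gdf3 was at -0.93 and -0.84, Foxh1 at -0.36 and -0.25 and Acvr2b at 0.24 and 0.24 for WT and KO. The difference between the 2 Lefty genes at this step was not tested.

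Between genotypes at EB5 none of the 8 genes passed by limma (4.34% of all genes), and 4 had an unadjusted p under 0.05, as had 3342 of all 16124 genes. Both KO libraries lay above both WT libraries for Nodal, Gdf3, Tdgf1, Lefty1 and Lefty2 and below both for Acvr2a, Acvr2b and Foxh1. This is a description, because the share of all genes that lay apart in this way was not counted. The differences nearest to the threshold were Tdgf1 at 2.17 (SE 0.64, limma adjusted p = 0.0759) and Gdf3 at 1.48 (SE 0.46, adjusted p = 0.0899), and DESeq2 called both (10.7% of all genes), whereas edgeR called none of the 8 (3.74%). Lefty1 was at 1.44, Lefty2 at 1.04 and Nodal at 0.47, and Acvr2a at -0.43, Foxh1 at -0.73 and Acvr2b at -0.77.

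**Figure D2:**
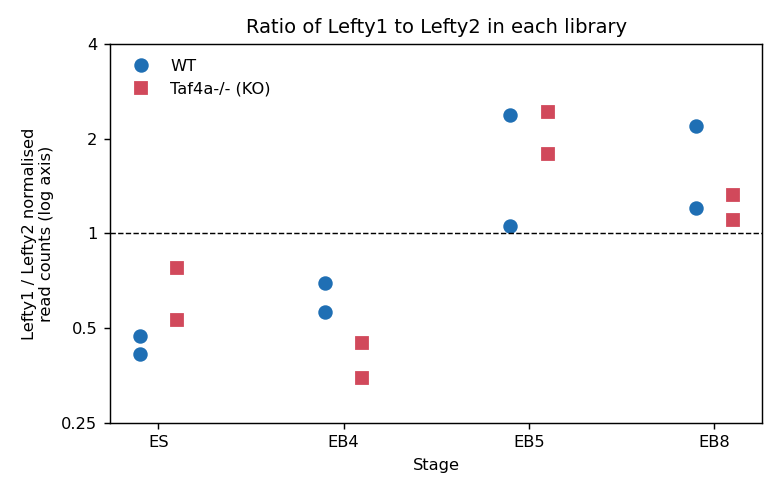
Ratio of Lefty1 to Lefty2 normalised read counts in each library (log axis), WT as blue circles and KO as red squares, with a dashed line at equal counts. The 8 ES and EB4 libraries lie below the line and the 8 EB5 and EB8 libraries above it. Per kilobase of exon the ratio exceeds 1 in WT EB4 replicate 1 (1.03) and KO ES replicate 2 (1.15) as well.

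The 2 Lefty genes sit side by side and followed each other over the 16 libraries (Pearson r = 0.94 on the log2 scale, a description in which libraries share their stage), yet the balance between them changed with stage. The ratio of Lefty1 to Lefty2 counts of ES libraries was 0.41 and 0.47 for WT and 0.53 and 0.78 for KO, and that of EB4 libraries 0.70 and 0.56 for WT and 0.45 and 0.35 for KO. After a day of retinoic acid it was 2.37 and 1.05 in WT against 2.43 and 1.79 in KO, and at EB8 2.20 and 1.21 in WT against 1.10 and 1.32 in KO. No library before retinoic acid overlapped a library after it, in either genotype. The pattern was noticed in the values and carries no test, and in WT EB8 it rests on few reads, with 5 reads of Lefty2 in replicate 1.

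From EB5 to EB8, the later retinoic acid treatment, 6 of the 8 genes fell in WT cells, beside 4.62% of all genes that fell. Lefty1 fell from 3584 and 1630 normalised counts to 11.6 and 30.7, a log2 change of -6.92 (SE 0.72, limma adjusted p = 0.00015), which is 121-fold. Lefty2 fell from 1512 and 1546 to 5.3 and 25.4, a change of -6.90 (SE 0.69, adjusted p = 0.000121), which is 119-fold. Foxh1 fell from 2231 and 1257 to 42.0 and 58.2, a change of -5.05 (SE 0.35, adjusted p = 2.3e-05), and Nodal from 1264 and 1172 to 33.6 and 65.6, a change of -4.66 (SE 0.31, adjusted p = 2.3e-05). Every WT EB8 library lay below every WT EB5 library for these 4 genes, by more than 10-fold. Gdf3 fell from 375 and 171 to 17.9 and 37.1, a change of -3.25 (adjusted p = 0.00116), and Tdgf1 from 1799 and 700 to 57.8 and 247, a change of -3.22 (adjusted p = 0.00782). The Tdgf1 call was lost without WT EB5 replicate 1 (adjusted p = 0.0959) or WT EB8 replicate 1 (0.0680), and in a fit of these 2 groups alone (0.0506).

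Acvr2a moved the other way in WT, from 1418 and 1609 at EB5 to 2643 and 2341 at EB8 (log2 change 0.72, SE 0.17, limma adjusted p = 0.0187), the 1 gene of the 8 that rose, beside 5.82% of all genes. Its call was lost without WT EB5 replicate 1 (adjusted p = 0.153), without either WT EB8 replicate (0.122 and 0.0642), and in the fit of both groups alone (0.0542). Acvr2b had 1212 and 1759 at EB5 and 1197 and 1830 at EB8, with an interval for the log2 change of -0.66 to 0.70.

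In KO cells the step from EB5 to EB8 gave no call among the 8 genes, in a comparison in which 0.738% of all genes passed. Nodal had 1698 and 1672 normalised counts at EB5 and 820 and 963 at EB8 (log2 change -0.92, SE 0.31, limma adjusted p = 0.217), Foxh1 had 1071 and 953 and then 487 and 512 (-1.01, SE 0.35, adjusted p = 0.224), and Lefty1 had 7962 and 5426 and then 550 and 727 (-3.38, SE 0.72, adjusted p = 0.0558). Lefty2 had 3281 and 3028 and then 499 and 550 (-2.59, adjusted p = 0.113), Tdgf1 3010 and 8537 and then 780 and 1013 (-2.51, adjusted p = 0.102), and Gdf3 610 and 823 and then 447 and 503 (-0.58, adjusted p = 0.685). Acvr2b had 896 and 820 and then 729 and 479 (-0.54, adjusted p = 0.530). For all 7 of these genes both EB8 libraries lay below both EB5 libraries, and the share of all genes that did so was not counted. Acvr2a lay higher in both EB8 libraries, with 1237 and 1011 before and 1494 and 1479 after (0.41, adjusted p = 0.328). An unadjusted p under 0.05 was reached by 6 of the 8 genes, all but Gdf3 and Acvr2b, and by 2065 of all 16124 genes. With the replicate number as a block within each genotype, added after the libraries were compared, 1 of the 8 passed, Lefty1 (adjusted p = 0.0361), and in a fit of the 2 groups alone Lefty1 and Lefty2 did (0.0324 for each). DESeq2 called 3 of the 8, Tdgf1, Lefty1 and Lefty2 (4.18% of all genes), and edgeR none (0.515%).

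At EB8 the genotypes differed in all 8 genes, 6 higher and 2 lower in KO, beside 10.4% of all genes that were higher and 12.5% that were lower. The median log2 change over the 8 was 3.73, against -0.03 over all genes tested. Of the feedback inhibitors, Lefty2 had 5.3 and 25.4 normalised counts in WT against 499 and 550 in KO, a log2 change of 5.35 (SE 0.69, limma adjusted p = 0.000301), and Lefty1 had 11.6 and 30.7 against 550 and 727, a change of 4.99 (SE 0.72, adjusted p = 0.000584). The ligands were close in size: Nodal had 33.6 and 65.6 against 820 and 963 (4.21, SE 0.31, adjusted p = 1.37e-05), and Gdf3 17.9 and 37.1 against 447 and 503 (4.15, SE 0.46, adjusted p = 0.000132). Foxh1 had 42.0 and 58.2 against 487 and 512 (3.31, SE 0.35, adjusted p = 9.36e-05). For these 5 genes the lower KO library was at least 8 times the higher WT library, and the calls held in all 14 alternatives run for each.

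Tdgf1 had 57.8 and 247 normalised counts in WT EB8, and 780 and 1013 in KO (log2 change 2.88, SE 0.64, limma adjusted p = 0.0072). Without WT EB8 replicate 1 its adjusted p was 0.0689 and its change 1.85. The receptors were lower in KO. Acvr2a had 2643 and 2341 in the WT libraries against 1494 and 1479 in KO (-0.74, SE 0.17, adjusted p = 0.00853), and Acvr2b 1197 and 1830 against 729 and 479 (-1.32, SE 0.31, adjusted p = 0.0101). Neither KO receptor range touched the WT range, but the Acvr2a call was lost without WT EB8 replicate 1 (adjusted p = 0.0656), and the Acvr2b call without WT EB8 replicate 2 (0.0985) or KO EB8 replicate 2 (0.0868).

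**Figure D3:**
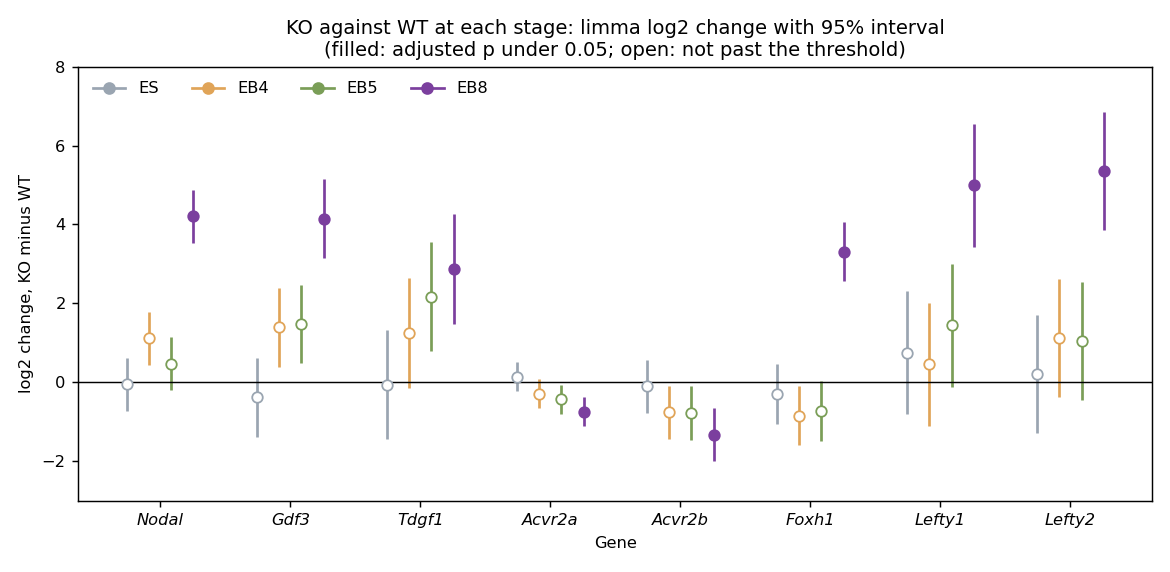
Log2 change between KO and WT (vertical axis) for each Nodal pathway gene at ES, EB4, EB5 and EB8, with 95% intervals from limma; filled points have an adjusted p under 0.05. No point is filled before EB8 and all 8 are filled at EB8, where Lefty2 is at 5.35 and Acvr2b at -1.32.

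Relative to its own ES mean, Nodal at EB8 was at 1.27% and 2.48% in the WT libraries and at 31.5% and 37.0% in the KO libraries. Foxh1 was at 2.90% and 4.01% in WT and 43.4% and 45.6% in KO, Lefty1 at 0.53% and 1.41% against 17.9% and 23.6%, and Lefty2 at 0.11% and 0.54% against 10.8% and 11.9%. Gdf3 was at 0.49% and 1.02% in WT and 15.9% and 17.9% in KO. Tdgf1 stood out among the 6 by its low share in KO, 3.06% and 3.97%, against 0.21% and 0.91% in WT. Acvr2a reached 412% and 365% of its ES mean in WT and 211% and 208% in KO.

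Whether these courses differ was tested as an interaction, the KO change from ES to EB8 minus the WT change. The WT change in it sets WT ES against WT EB8, where line and stage cannot be told apart. Of the 8 genes 6 passed, 5 with a more positive change in KO (3.85% of all genes) and 1 with a more negative change (3.44%). The differences were 5.14 for Lefty2 (SE 0.97, limma adjusted p = 0.0103), 4.53 for Gdf3 (SE 0.65, adjusted p = 0.00334), 4.26 for Nodal (SE 0.44, adjusted p = 0.000739), 4.24 for Lefty1 (SE 1.01, adjusted p = 0.0279), 3.60 for Foxh1 (SE 0.49, adjusted p = 0.00277) and -0.88 for Acvr2a (SE 0.24, adjusted p = 0.0457). Tdgf1 at 2.94 (adjusted p = 0.0676) and Acvr2b at -1.22 (adjusted p = 0.113) did not pass. The call of Acvr2a was lost in 11 of 18 alternatives and that of Lefty1 in 6 of 18, each of these 6 with a library left out, whereas Nodal, Gdf3, Foxh1 and Lefty2 passed in all 18.

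The same difference over the step from EB5 to EB8 was tested after the values had been seen. Nodal (3.74, SE 0.44, limma adjusted p = 0.00488) and Foxh1 (4.04, SE 0.49, adjusted p = 0.00488) passed, in a comparison in which 16 of 16124 genes (0.0992%) passed in that direction, and both passed in all 19 alternatives. Lefty2 at 4.31 (adjusted p = 0.0701), Gdf3 at 2.67 (0.0949) and Lefty1 at 3.54 (0.166) did not, and Tdgf1 at 0.71 (SE 0.91, 95% interval -1.26 to 2.68) had changes of -3.22 for WT and -2.51 for KO that could not be told apart. Acvr2a was at -0.31 and Acvr2b at -0.55, and neither passed.

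Markers of several cell types moved with these values at EB8, and their part in the result was not tested. In bulk RNA, fewer cells of a type and less RNA per cell cannot be told apart. The 5 ES markers (Pou5f1, Nanog, Zfp42, Esrrb and Klf4) summed to 1226 and 1274 normalised counts in WT EB8 and to 18155 and 19788 in KO EB8, with Nanog at 118 and 313 against 7989 and 8408 and Pou5f1 at 193 and 261 against 3218 and 3690. Klf4, alone among the 5, overlapped between genotypes, at 474 and 228 against 454 and 583. Of the neural precursor markers, Nes had 12104 and 7454 in WT EB8 against 2831 and 3312 in KO EB8 and Pax6 5447 and 5317 against 838 and 361, and the neuronal sums given above differed in the same direction. The 4 primitive streak markers summed to 33.6 and 38.1 against 502 and 423, with Eomes at 23.1 and 12.7 against 471 and 362. Eomes made up most of both KO sums, and each other gene of that list had 38.3 normalised counts or fewer in every EB8 library. Endoderm markers summed to 1296 and 1210 in WT against 634 and 572 in KO, and fibroblast feeder markers to 2036 and 2625 against 866 and 3101, overlapping between genotypes, with Lum at or under 3 reads in KO EB8.

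**Figure D4:**
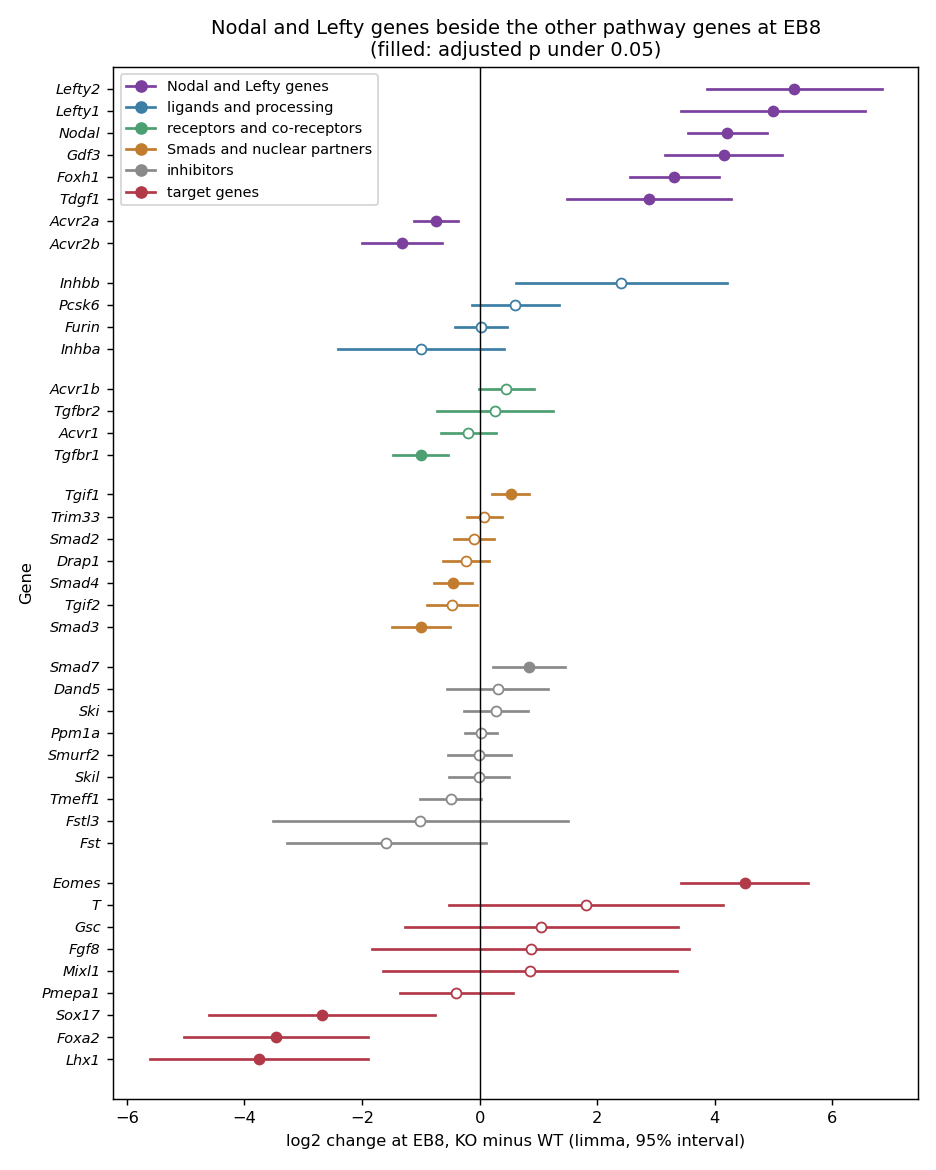
Log2 change at EB8, KO minus WT (horizontal axis, limma with 95% intervals), of the 8 Nodal pathway genes (purple) and of other pathway genes grouped by role; filled points have an adjusted p under 0.05. Of these other genes 9 are filled, and Eomes at 4.51 is the only filled point among them that lies above 1.

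Other genes of the pathway were taken from lists of ligands and processing enzymes, receptors, Smads and nuclear partners, inhibitors, and target genes. Of 38 listed genes 37 were in the table and 34 could be tested, while Gdf1, like the neural marker Sox1, was not analysed here. At EB8, 9 of them passed, 3 higher and 6 lower in KO, beside 22.9% of all genes called in either direction, a share near that of these 34, with a median log2 change over the 34 of 0.01, against 3.73 for the 8. Leaving out any of the EB8 libraries brought the 9 calls to 4 or 5. The target genes split by direction. Eomes, a T-box factor of the primitive streak, which is also in the streak marker list, had 23.1 and 12.7 normalised counts in WT against 471 and 362 in KO (4.51, SE 0.49, limma adjusted p = 0.000127). Lhx1, a LIM homeobox factor that is also expressed in neurons, had 2730 and 5043 in the WT libraries against 386 and 196 in KO (-3.75, adjusted p = 0.00827). Foxa2, a factor of endoderm and floor plate, had 576 and 340 against 40.1 and 38.3 (-3.46, adjusted p = 0.00513), and Sox17, an endoderm factor, 339 and 483 against 53.8 and 72.4 (-2.68, adjusted p = 0.0460). Among the 10 target genes 1 was thus higher and 3 were lower.

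Signal transducers changed less. Smad3 had 4202 and 4473 normalised counts in WT EB8 and 2099 and 2231 in KO (-1.0, SE 0.23, limma adjusted p = 0.00787), and Tgfbr1, a type I receptor for TGF-beta, 7607 and 7339 against 3308 and 4209 (-1.0, SE 0.22, adjusted p = 0.00639). Beyond these, and named after their values were seen, Smad4 was lower and the corepressor Tgif1 and the inhibitory Smad7 were higher in KO, each by less than 1 log2 unit. Of 4 ligand and processing genes tested none passed at EB8 by limma or edgeR and 1 by DESeq2, which called 4626 of all 16124 genes. Of these 4 genes 1 had an unadjusted p under 0.05 in limma, as had 5803 of all genes. By limma 1 of 4 receptors passed, 3 of 7 Smads and partners, and 1 of 9 inhibitors, beside 22.9% of all genes.

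At ES 0 of the 34 passed, beside 0% of all genes, and 3 had an unadjusted p under 0.05, as had 1846 of all 16124 genes. For the same comparison edgeR called 0 (0% of all genes) and DESeq2 2 (3.27%). At EB4 6 passed (1 higher and 5 lower in KO, beside 6.12% of all genes) and at EB5 4 (2 higher and 2 lower, beside 4.34%). Among those at EB4, Smad3 was at -1.31 (limma adjusted p = 0.0105), Furin, a protease that cleaves the Nodal precursor, at -1.23 (0.00943), the type I receptor Acvr1 at -0.83 (0.0443), Smad4 at -0.58 (0.0390) and Smad7 at 1.26 (0.0265). At EB5, Foxa2 was at -4.84 (adjusted p = 0.00900), the activin subunit gene Inhbb at 3.61 (0.0334), Smad3 at -1.19 (0.0172) and Tgif1 at 0.81 (0.0150). These calls were fewer or none without some libraries: 0 to 3 of the 34 passed at EB4 and 0 to 3 at EB5 with a library of that stage left out, and 0 and 1 passed in a fit of the compared groups alone. In the interaction from ES to EB8, 3 passed, beside 7.29% of all genes: Eomes (4.67, adjusted p = 0.00374), Foxa2 (-4.11, adjusted p = 0.0318) and Tgfbr1 (-1.35, adjusted p = 0.0228).

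The genes whose levels followed each member most closely over the 16 libraries were named by Pearson r on the log2 scale, as a description over libraries that share stage and genotype. For Nodal they were Lefty2 (r = 0.98), 2810011L19Rik (0.95) and Gm6792 (0.95), and for Lefty2 they were Nodal, Glt1d1 (0.96) and 2810011L19Rik (0.94). Lefty1 was closest to Lefty2 (0.94), Nodal (0.92) and Pld6 (0.92). Tdgf1 was closest to Pou5f1 (0.97), Rest (0.97) and Mup6 (0.97), and Gdf3 to Chrna9 (0.97), EU599041 (0.97) and Slc4a11 (0.97). Foxh1 had Tcfl5 (0.95), Aspg (0.94) and Atf7ip2 (0.94). Acvr2a had Sncaip (0.97), Zbtb5 (0.97) and Ttc3 (0.97), and Acvr2b had Wnk2 (0.94), Hnrnph3 (0.94) and Ccni (0.94). Among the 8 genes themselves r was lowest between Acvr2a and Tdgf1 (-0.97) and nearest to 0 between Acvr2b and Foxh1 (-0.27).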

How the data were processed

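Poly-A RNA from 16 libraries, 2 for each of 8 groups of genotype and stage, was sequenced by the authors as single-end reads of 54 bases. The submitters' processing notes name CASAVA 1.7 and 1.8, TopHat2 2.0.10, HTSeq 0.5.4p3, DESeq2 1.0.19 and build mm9. The annotation release and the setting for strand are not given in the sources used here, and the library kit does not mark strand. The deposited values are a normalised signal, which the authors made as the read count of each gene divided by a size factor of its library. In every library 100.0% of the deposited values gave whole reads (within 0.001 read) when divided by what 1 read is worth there, which recovers read counts and depth.

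Groups and replicate numbers were taken from the sample titles. limma 3.58.1 was fitted to log2(value + 1) with a mean for each group over all 16 libraries (eBayes with trend, 8 residual and 4.27 prior degrees of freedom). The test was limited to genes averaging 10 or more, and p-values were adjusted over all 16124 by the Benjamini-Hochberg method with a threshold of 0.05. Such a scale understates changes in weakly expressed genes. The study used DESeq2, and here DESeq2 1.42.0 and edgeR 4.0.16 (quasi-likelihood) served as alternatives on the recovered reads (R 4.3.3). Genes without an adjusted p from DESeq2 were left out of its shares. Other alternatives were a pseudocount of 0.1 or 5, a filter that was absent or set at a mean of 50, upper-quartile and quantile scaling, a fit of only the compared groups, a block for the replicate number (over all groups or, added later, within genotype), and each library left out. The main limma fit, edgeR and DESeq2 were tested on simulated data for KO against WT at EB8 alone, and the other alternatives and comparisons were not. Counting limits cover counting error only, with 3 reads or fewer taken as the floor of detection.

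The genes described, the pathway and marker lists and the tests were chosen with earlier results of these data known, and the difference in change from EB5 to EB8 was added after its values were seen. All 8 genes are named in each comparison, with the pathway genes past the threshold (up to the 6 largest log2 changes), the 3 genes with the highest correlation to each, Taf4a, and marker lists as sums with up to 2 examples. Klf4 is named besides because it did not follow its sum. Some listed genes are not reported here, and for neural precursors the examples alone are given. Marker lists covered ES cells, neural precursors, neurons, fibroblast feeders, primitive streak and endoderm, and Map2 is listed under its older name. Positions and windows of read length were taken from NCBIM37 with GENCODE M1 (27603 identifiers found, 204 not), and promoter sequences from RefSeq on GRCm38.p6. These 2 builds were not mixed.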

Additional observations from a re-analysis of the deposited data

Results flagged for a closer look

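The change from ES to EB8 differed between the genotypes, by the interaction term of limma, for 6 of the 8 genes. The KO change minus the WT change was 4.26 log2 units for Nodal, 4.53 for Gdf3, 3.60 for Foxh1, 4.24 for Lefty1, 5.14 for Lefty2 and -0.88 for Acvr2a. The term for the change from EB5 to EB8, added after the values were seen, differed for Nodal (3.74) and Foxh1 (4.04). The Acvr2a and Lefty1 calls in the interaction from ES to EB8 were lost with some libraries left out, as given above. That of Acvr2a was also lost without the filter (limma adjusted p = 0.0644) and with upper-quartile (0.0861) or quantile scaling (0.057). In a fit of only the groups compared it was lost as well (0.0907).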

How the results depend on the processing

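The counts of 8 genes called at EB8 and 6 in the interaction from ES to EB8 moved by at most 1.5 times in every alternative run. With a library left out, the number of the 8 genes called ranged from 6 to 8 at EB8, 4 to 6 in that interaction, 2 to 4 for WT EB4 against ES, 0 to 1 for WT EB5 against EB4 and 5 to 7 for WT EB8 against EB5, and pathway genes called from 0 to 1 at ES, 0 to 3 at EB4, 0 to 3 at EB5, 4 to 5 at EB8 and 1 to 4 in the interaction.

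At EB4 the count of 0 of the 8 genes became 1 with a pseudocount of 5, a mean of at least 50 or the replicate block, and 2 with DESeq2, which also called 2 at EB5 in place of 0. For KO EB8 against EB5 the 0 became 1 with a pseudocount of 5, quantile normalisation or the replicate block within genotype, 2 with only the groups compared and 3 with DESeq2. With only the groups compared, 1 of the 8 passed for WT EB4 against ES, 0 for WT EB5 against EB4 and 1 for KO EB5 against EB4, and pathway genes called were 0 at EB4 and 1 at EB5. For EB5 against EB4 DESeq2 called 2 of the 8 in WT, beside 1089 of all 16124 genes, and 2 in KO, beside 6.43% of all genes. In the interaction from EB5 to EB8 it called 5 of the 8, and 488 of all 16124 genes against 126 by limma. Of the pathway genes it called 2 at ES (3.27% of all genes) and 8 at EB5 (10.7%). The cause of these shifts was not tested.

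Signs turned only for log2 changes that had not passed. Lefty2 at ES was at -0.043 with edgeR and -0.044 with DESeq2. With a library left out, the log2 change at ES ran from -0.327 to 0.235 for Nodal, -0.354 to 0.243 for Tdgf1, -0.252 to 0.045 for Acvr2b, -0.785 to 0.206 for Foxh1, -0.231 to 1.735 for Lefty1 and -0.675 to 1.101 for Lefty2. In the same way Lefty1 at EB4 ran from -0.528 to 1.439 and Tdgf1 in the interaction from EB5 to EB8 from -0.33 to 1.746.

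The correlation of differences between replicates over pairs of groups ran from -0.21 to 0.60 and exceeded 0.1 in 12 of 28 pairs, so the replicate number did not pair libraries over all groups. Within KO it ran from 0.23 to 0.42 over 6 pairs of groups and within the WT embryoid bodies from 0.52 to 0.60 over 3, while WT ES gave -0.18 to -0.05 with the latter. With KO ES, EB4 and EB5 WT ES gave 0.335, 0.281 and 0.368, and with KO EB8 0.056. A block within KO and within the WT embryoid bodies, added after this was seen, was therefore fitted for the stage comparisons it bears on. It took all genes called for KO EB8 against EB5 from 119 to 374 and for KO EB4 against ES from 564 to 1395, and among the 8 genes it changed 1 call, that of Lefty1 for KO EB8 against EB5. With the number as a block over all groups, Nodal at EB4 passed (log2 change 1.12, limma adjusted p = 0.0395) and no other count of calls among the 8 genes changed. Upper-quartile scaling took the median change over the tested genes from -0.03 to 0.11 log2 units at EB8, and in the interaction from ES to EB8 from -0.04 to 0.16, with none of the 8 changing sign at EB8. Depth limited Lefty2 in WT EB8, at 5 reads in replicate 1, and elsewhere the 2 libraries a group set the precision, as in the 95% interval of -1.45 to 1.34 for Tdgf1 at ES.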
